A study of Mus musculus with 24 samples.

Results

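The ligands of the tumour necrosis factor (TNF) superfamily are small trimeric signals that T helper cells secrete or carry on their surface. The 10 genes of this family followed here were Tnf, Lta, Ltb, Fasl, Cd40lg, Tnfsf4, Tnfsf8, Tnfsf10, Tnfsf11 and Tnfsf14. They were chosen by name, with earlier results of these data known, and all 10 had a probe among the 20028 genes of the array. Each ligand had 1 probe, which was spotted 10 times per array for Tnf and Lta and 1 time for the other ligands.

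Tnf and Lta encode trimers that can be released and that bind the same TNF receptors. Ltb encodes the membrane partner that holds lymphotoxin alpha at the cell surface and directs it to the lymphotoxin beta receptor of lymphoid stroma. Fasl and Tnfsf10, which encodes TRAIL, engage death receptors. Cd40lg is the helper signal to B cells and dendritic cells, Tnfsf4 encodes OX40 ligand, Tnfsf8 the ligand of CD30, Tnfsf11 the osteoclast factor RANKL, and Tnfsf14 the costimulatory ligand LIGHT. Many of these ligands are scarce in resting T cells and appear after T cell activation.

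The data were 24 dual-colour Agilent arrays, with 1 array for each condition. Sample RNA, labelled with Cy3, came from Th1 cells (14 arrays) or Th2 cells (10 arrays) differentiated in vitro from naive CD4+ T cells of female C57BL/6 mice. The common reference, labelled with Cy5 on every array, was RNA of naive CD4+CD62L+CD25-CD44lo T cells from lymph nodes and spleens of female C57BL/6 mice. Vehicle cells had DMSO. JQ1, which displaces BET proteins from acetylated chromatin, was given at 50 nM and at 500 nM, and flavopiridol, which blocks the kinase P-TEFb that releases paused RNA polymerase II, at 1 µM and at 10 µM. Unstimulated and reactivated cells of every treatment were each put on an array of their own, and the reactivating stimulus of these arrays is not given in the sources used here. The drugs were present for 6 hr, with a further time of 24 hr for Th1 cells in DMSO and in 500 nM JQ1. Titles and source names of both Th2 DMSO arrays disagree between 24 and 6 hr, so their time is unknown in every comparison that uses them. The comparisons ask how far expression of these genes after reactivation depends on P-TEFb and on BET proteins.

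Values below are log2 ratios of sample over naive cells unless another scale is named, and a difference of 1 is 2-fold. No condition was repeated, and the tests rest on effects that recur over pairs of arrays or over cell contexts. Their p-values therefore measure the spread between contexts and not between animals or cultures. In such cultures, fewer cells of a type and less RNA per cell cannot be told apart. In Cy3, probes well above background made up 48.8% to 52% of all probes on DMSO arrays, 43.8% to 51.1% on JQ1 arrays and 35.4% to 41.5% on flavopiridol arrays. The arrays lay on 3 slides of 8, where the unstimulated and reactivated array of each treatment shared a slide but no flavopiridol array shared one with its DMSO control. All 6 T cell markers present on the array were well above background in every sample. The summed Cy3 signal of 6 Th1 markers was 13.34 to 16.31 (log2) on unstimulated Th1 arrays and 9.64 to 10.64 on unstimulated Th2 arrays. That of 6 Th2 markers was 10.23 to 12.27 on 6 Th1 arrays and 12.58 to 15.19 on the 6 matched Th2 arrays with DMSO or JQ1, but 10.97 to 11.12 on Th2 and 10.89 to 11.47 on Th1 arrays with flavopiridol. The 24 hr Th1 arrays had 10.56 to 13.29 for the Th2 markers, and the highest of them, reactivated with DMSO, lay inside the Th2 range.

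Tnf, Lta and Ltb are neighbours on chromosome 17 and gave 3 different responses below, so the sequences around their starts are shown. Each is the stretch from 250 bases before to 50 bases after the start of the gene in RefSeq (GRCm38.p6), which held such a stretch for 8 of the 10 ligands. They are Tnf at chr17:35201958-35202257 on the minus strand, Lta at chr17:35205302-35205601 on the minus strand and Ltb at chr17:35194257-35194556 on the plus strand. Capitals mark matches, on either strand, to the TATA motif TATAAA, the AP-1 motif TGANTCA or the NF-κB consensus.
Tnf: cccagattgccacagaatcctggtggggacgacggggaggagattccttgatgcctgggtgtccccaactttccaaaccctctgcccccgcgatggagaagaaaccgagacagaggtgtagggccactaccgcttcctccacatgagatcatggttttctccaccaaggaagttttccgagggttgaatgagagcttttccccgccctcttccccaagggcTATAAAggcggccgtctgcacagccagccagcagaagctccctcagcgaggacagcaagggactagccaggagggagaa
Lta: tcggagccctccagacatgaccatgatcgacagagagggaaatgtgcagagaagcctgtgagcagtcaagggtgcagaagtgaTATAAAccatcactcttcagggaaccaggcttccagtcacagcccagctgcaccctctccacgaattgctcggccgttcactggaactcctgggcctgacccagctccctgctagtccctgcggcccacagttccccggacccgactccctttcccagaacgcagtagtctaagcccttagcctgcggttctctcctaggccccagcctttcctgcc
Ltb: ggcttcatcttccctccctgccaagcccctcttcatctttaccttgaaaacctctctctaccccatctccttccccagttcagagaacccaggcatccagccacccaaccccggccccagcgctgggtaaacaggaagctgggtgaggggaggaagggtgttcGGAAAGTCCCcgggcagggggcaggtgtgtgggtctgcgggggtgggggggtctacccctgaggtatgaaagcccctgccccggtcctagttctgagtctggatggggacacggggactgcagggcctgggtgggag

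The Tnf stretch held TATAAA at 29 to 24 bases before the start, where a TATA box lies, and the Lta stretch held it at 167 to 162 bases before. The Ltb stretch had no TATAAA but was the only one of the 8 with an NF-κB consensus match, at 87 to 78 bases before the start. Among the 32851 mouse promoters of the same table, 13.6% held TATAAA, 4.51% the NF-κB consensus and 7.81% TGANTCA. The core motif of NFAT, GGAAA, was present 3 times in Tnf, 3 times in Lta and 1 time in Ltb, there inside the NF-κB match, and was held by 61.3% of all promoters. The T-box motif GGTGTGA, held by 3.98% of promoters, was found in none of the 8. Of the other ligands, Tnfsf11 held TATAAA at 32 to 27 bases before the start and Tnfsf14 held TGANTCA at 160 to 154 bases before. These are matches of letters and not measured sites.

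Reactivation raised most of the ligands. In the 3 DMSO pairs, 8 of 10 ligands were higher in reactivated cells and 1 was lower, where 22.7% of 12526 genes were called higher and 29.7% lower (limma, adjusted p below 0.05). The median log2 change over the 10 ligands was 2.47, against -0.05 over all genes. Centring on spike-in RNA moved the split over all genes from 43.3% to 60.7% of calls higher and left 8 ligands higher and 1 lower. The heat map of all arrays shows these values beside those with the drugs.

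**Figure D1:**
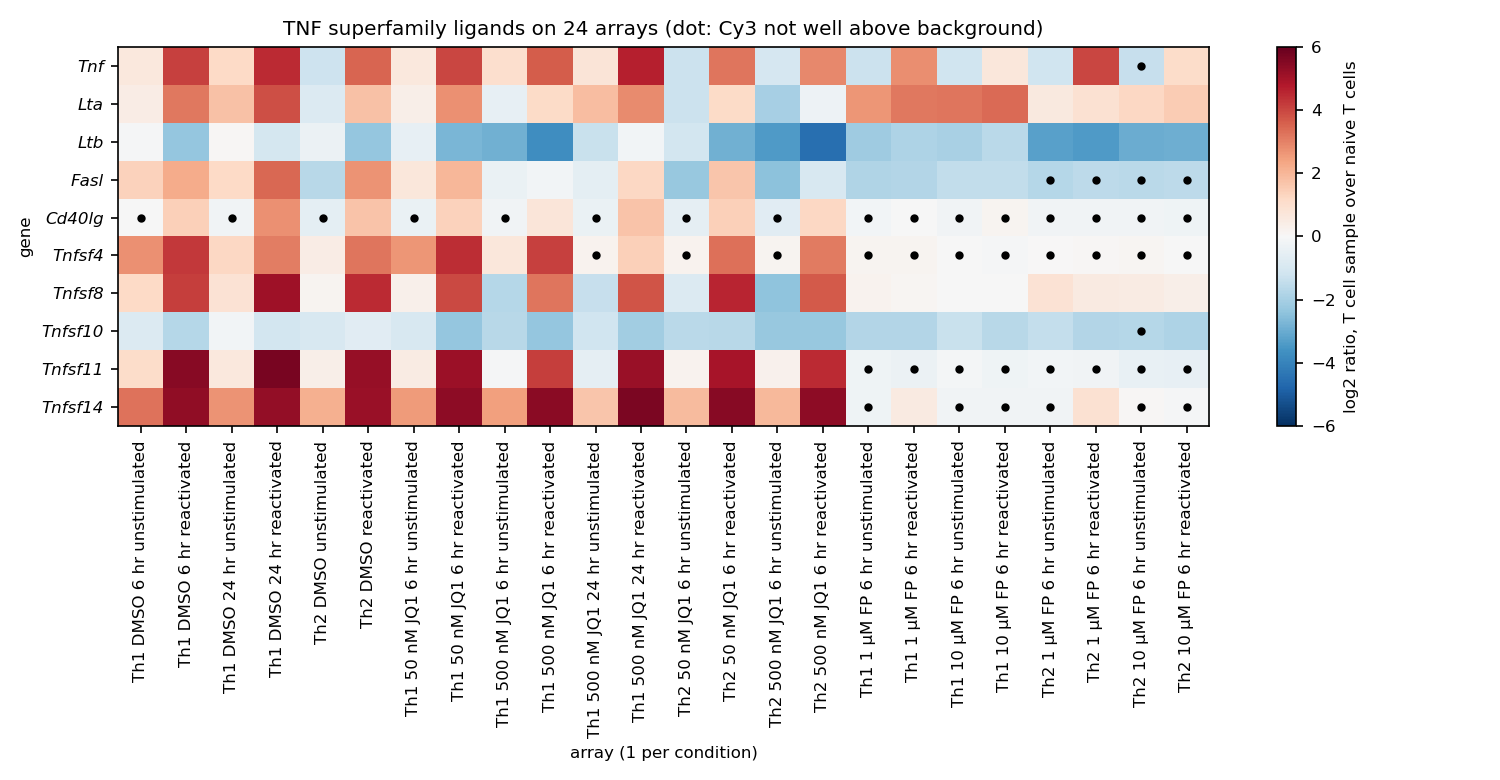
Log2 ratio to naive CD4+ T cells of the 10 ligands (rows) on the 24 arrays (columns, 1 array per condition), as colour. A dot marks a Cy3 signal not well above background. Reactivated columns of DMSO and JQ1 arrays are high for most ligands and low for Ltb, and with flavopiridol the dots cover Cd40lg, Tnfsf4, Tnfsf11 and much of Tnfsf14.

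Tnfsf11, which encodes the RANKL that drives osteoclast formation, had the largest fitted change among the ligands. In Cy3 alone, however, Tnfsf14 (5.44) and Tnf (5.34) rose more than Tnfsf11 (5.17), and in the authors' table Tnfsf14 did (5.57 against 5.45). The log2 ratio of Tnfsf11 was 1.12 in Th1 cells at 6 hr, 0.65 in Th1 cells at 24 hr and 0.37 in Th2 cells when unstimulated, and 5.48, 5.7 and 5.22 in the same order after reactivation. The groups lay far apart, and the fitted rise of 4.76 ± 0.21 (SE, 3 pairs) was 27.1-fold (limma adjusted p = 3.24e-05). Tnfsf8, the ligand of CD30, went from 1.21, 0.85 and 0.16 to 4.17, 5.09 and 4.48, a rise of 3.84 ± 0.29 or 14.3-fold (adjusted p = 9.03e-05). Both were thus within 1.21 of the naive level before reactivation and far above it afterwards.

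Tnf itself had log2 ratios of 0.65 and 1.21 in unstimulated Th1 cells at 6 and 24 hr and of -1.26 in unstimulated Th2 cells. After reactivation they were 4.11, 4.46 and 3.5. All 3 pairs rose, by 3.82 ± 0.29 (SE) or 14.1-fold in the fit (adjusted p = 9.71e-05). The Cy5 signal of the Tnf spots, which should report naive RNA alone, was 8.99 to 9.19 (log2) on unstimulated and 9.08 to 12.03 on reactivated arrays. The difference in Cy3 alone was 4.47, 6.26 and 5.29 in the 3 pairs, above the differences in ratio of 3.46, 3.24 and 4.76. The part of the Cy5 signal in the ratio was not tested.

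Tnfsf14, which encodes LIGHT, already exceeded the naive level in unstimulated cells, with 3.25, 2.69 and 2.15. It reached 5.33, 5.28 and 5.2 after reactivation, a rise of 2.57 ± 0.27 (adjusted p = 0.00026). The size of this rise depended on the processing, with 1.4 from the scanner log ratio and 5.57 from the authors' table. Its Cy5 signal also moved, from 6.29 to 6.55 on unstimulated arrays to 6.3 to 9.57 on reactivated ones, and the differences in Cy3 alone were 4.39, 5.78 and 6.14. Tnfsf4, the OX40 ligand gene, went from 2.73, 1.23 and 0.46 to 4.22, 3.07 and 3.22, a rise of 2.03 ± 0.26 (adjusted p = 0.000601). Its naive signal was well above background on no array, so its ratios to naive cells are lower bounds, and a difference between arrays is measured only where Cy3 was well above background on both. That held on 13 of 24 arrays, and failed in unstimulated Th2 cells with JQ1, in unstimulated Th1 cells at 24 hr with 500 nM JQ1 and with flavopiridol.

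Lta, which encodes lymphotoxin alpha, went from 0.46, 1.78 and -0.83 to 3.15, 3.86 and 1.76. The rise of 2.45 ± 0.17 was 5.47-fold (adjusted p = 7.96e-05). Cd40lg was not well above background in any unstimulated sample, and in reactivated DMSO cells its ratio was 1.45, 2.73 and 1.7. On the Cy3 scale the rise was at least 2.88-fold, 6.29-fold and 3.6-fold in the 3 pairs, and the fit of the ratios called it higher (limma adjusted p = 0.000387). Every array on which Cd40lg was detected, 8 in all, was one of reactivated cells with DMSO or JQ1.

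The death ligands did not move alike. Fasl went from 1.38, 1.19 and -1.66 to 2.21, 3.46 and 2.69, a rise of 2.48 ± 0.55 (adjusted p = 0.00698). The single pairs differed widely, with 0.83 in Th1 cells at 6 hr, 2.27 in Th1 cells at 24 hr and 4.35 in Th2 cells. Tnfsf10, the TRAIL gene, was below the naive level on every array. Its values were -0.83, -0.17 and -0.96 before and -1.69, -1.12 and -0.68 after reactivation, which overlap, and its change of -0.51 ± 0.24 was not called (adjusted p = 0.108).

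Ltb ran against the others. It stood near the naive level in unstimulated cells, at -0.06, 0.08 and -0.35, and at -2.34, -1.07 and -2.31 after reactivation. The fall of 1.8 ± 0.21 on the log2 scale was 3.49-fold (log2 change -1.8, adjusted p = 0.000448). Lta and Ltb, whose products form 1 complex, were thus changed in opposite directions by the same reactivation.

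Summed markers of other cells also differed between the 3 unstimulated and the 3 reactivated DMSO arrays (log2 of summed Cy3). The CD8 T and NK cell list was at 9.02 to 9.96 and 10.26 to 10.83, with 2 to 3 and 2 to 4 of 6 markers detected and Klrb1c on no array. T cell markers were at 16.99 to 17.33 and 16.04 to 16.48 with all 6 detected, and naive T cell markers at 15.69 to 16.39 and 13.93 to 14.96 with all 5 detected. Their part in the reactivation results was not tested.

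**Figure D2:**
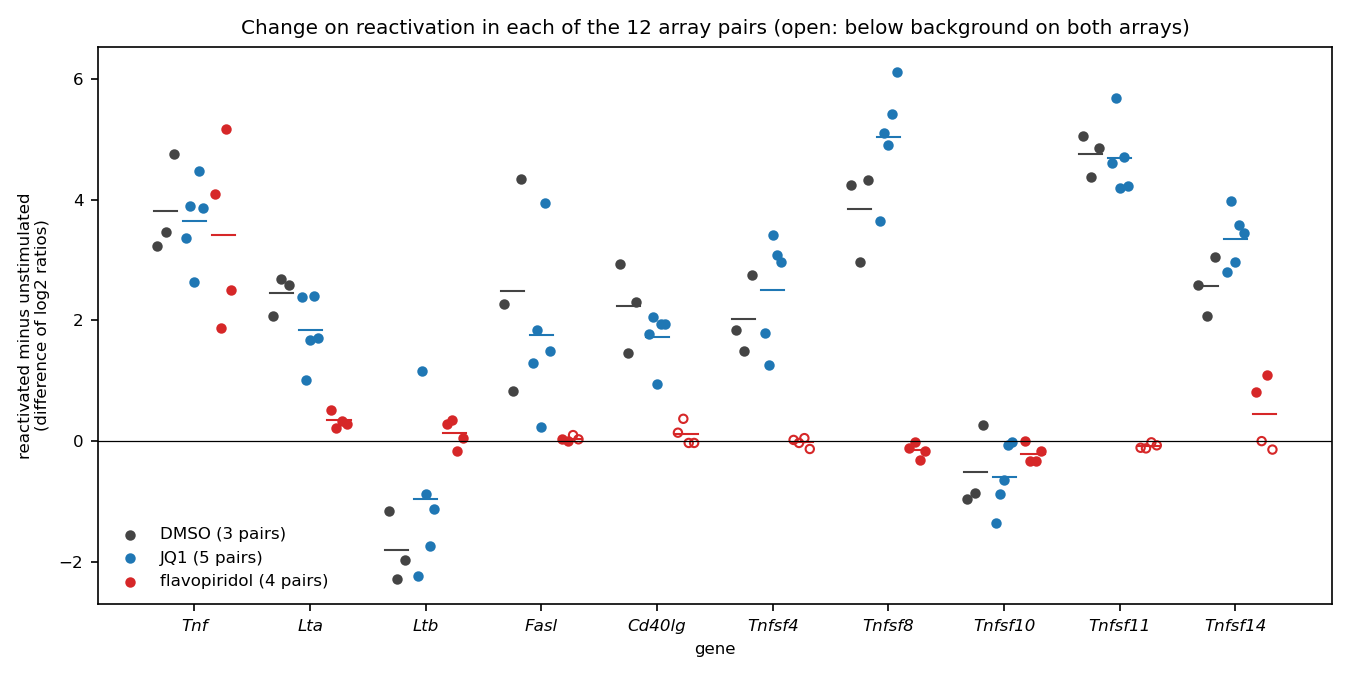
Reactivated minus unstimulated log2 ratio of each ligand (x axis) in each of 12 pairs of arrays, coloured by DMSO (3 pairs), JQ1 (5 pairs) or flavopiridol (4 pairs). With DMSO and JQ1 most ligands lie above 0 and Ltb mostly below, and with flavopiridol the 4 Tnf pairs lie at 1.87 to 5.17 while no other ligand is above 1.1.

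The receptors and pathway of these ligands were read from lists of named genes. Of 9 tested cognate receptors, 5 rose and 1 fell on reactivation, where 22.7% of genes were higher and 29.7% lower. The counts were 3 and 1 with median centring and 6 and 1 with either spike-in setting. Cd40 rose by 1.79 and Tnfrsf4, the OX40 receptor, by 1.68 (adjusted p = 0.00206 and 0.0052), while Tnfrsf1a, the main receptor of TNF, had a change of -1.01 (adjusted p = 0.00244). Of 5 tested further ligands of the family, Cd70 rose by 2.26 and Tnfsf9, the 4-1BB ligand gene, by 1.79 (adjusted p = 0.000227 and 0.00216), and Tnfsf13b, the BAFF gene, changed by -0.8 (adjusted p = 0.00389), a call not made with either spike-in setting. Signalling genes were split, with 9 of 30 higher and 8 lower, a share near that of all genes. The split was 15 higher and 2 lower with spike-in centring, and 12 and 3 with a spike-in shift. The caspase-8 inhibitor gene Cflar rose by 2.5, the NF-κB subunit gene Nfkb1 by 2.38 and the adaptor gene Traf1 by 1.72 (adjusted p = 9.03e-05, 0.000135 and 0.000139). Of 10 genes that shed the ligands or control their messages, 3 rose and 1 fell. The message-decay gene Zfp36l2 had a change of -2.23 and its relative Zfp36l1 of 1.79 (adjusted p = 0.00032 and 0.00318). Mapkapk2 rose by 1.82 and Elavl1 by 0.56.

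JQ1 at 500 nM lowered most ligands. Over the 4 contexts of Th1 and Th2 cells, unstimulated and reactivated, 7 of 10 ligands were lower and none higher than with DMSO, and Tnf, Tnfsf4 and Tnfsf14 were not called, where 30.1% of 12906 genes were called lower and 17.8% higher (limma). The median log2 change was -0.98 over the ligands and -0.07 over all genes. With spike-in centring the split over all genes moved from 37.2% to 2.74% of calls higher and the median of all genes to -0.5. It called 8 ligands lower, where 4938 of 12906 genes were lower. The Th2 JQ1 arrays lay on another slide than their control, and in the Th1 contexts, all on 1 slide, 6 ligands were called.

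Ltb was reduced in both states. In unstimulated cells it was -0.06 (Th1) and -0.35 (Th2) with DMSO and -2.86 and -3.39 with JQ1. In reactivated cells it was -2.34 and -2.31 with DMSO and -3.73 and -4.52 with JQ1. JQ1 thus took Ltb below both the naive and the reactivated level, and the change over the 4 contexts was -2.36 ± 0.23 or 5.14-fold lower (adjusted p = 1.38e-05).

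Fasl had -0.39 and -2.47 in unstimulated and -0.16 and -0.98 in reactivated Th1 and Th2 cells with JQ1, against 2.21 and 2.69 in the reactivated controls. Its change was -2.16 ± 0.36 (adjusted p = 0.000531). Tnfsf8 was -1.69 and -2.41 in unstimulated cells with JQ1, below the naive level, but 3.22 and 3.7 after reactivation, against 4.17 and 4.48 in the controls. Its change over the contexts was -1.8 ± 0.3 (adjusted p = 0.000517). Lta was -0.5 and -2 in unstimulated and 1.17 and -0.29 in reactivated cells with JQ1, a change of -1.54 ± 0.17 (adjusted p = 3.06e-05).

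Smaller falls were called for Tnfsf10 (-1.1 ± 0.16, adjusted p = 0.000186), Tnfsf11 (-0.86 ± 0.17, adjusted p = 0.0019) and Cd40lg (-0.36 ± 0.12, adjusted p = 0.0301), whose call was lost under 12 of 27 alternatives. Cd40lg was detected only in the reactivated contexts, at 0.73 and 1.26 with JQ1 against 1.45 and 1.7. Tnf was 3.63 and 2.87 in reactivated cells with JQ1 against 4.11 and 3.5 with DMSO. Its change over the 4 contexts was -0.12, with a 95% interval of -0.47 to 0.22 (adjusted p = 0.55). Tnfsf14 was 5.41 and 5.39 in reactivated cells with JQ1 against 5.33 and 5.2. Its change over the contexts was -0.18, with an interval of -0.54 to 0.17 (adjusted p = 0.371), while it was lower in unstimulated cells alone (-0.5 ± 0.18, adjusted p = 0.0419, and 0.374 with spike-in centring). In Cy3 alone the change over the contexts was called (-0.41 ± 0.14, adjusted p = 0.03). In reactivated cells its difference was 0.13, which turned to -0.95 with spike-in centring. Tnfsf4 gave -0.64 with an interval of -1.28 to 0.01 (adjusted p = 0.0954), and its Th2 JQ1 signal in unstimulated cells was not well above background.

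At 50 nM JQ1 no ligand was called, where 0.24% of genes were called higher and 0.093% lower. All 10 fitted changes were negative, from -0.64 for Fasl to -0.02 for Tnfsf4, and 3 had an unadjusted p below 0.05 (limma). Th1 cells at 24 hr, which the JQ1 fit did not use, were compared as single arrays with 500 nM JQ1 and DMSO. By the ratios of the ligands detected, 7 of 9 were at least 2-fold lower in unstimulated and 5 of 10 in reactivated cells. That held for 4.88% and 4.58% of genes, and no ligand was 2-fold higher. The 7 include Tnfsf4, whose JQ1 signal was at background, so a 2-fold fall is not shown for it. Fasl was lower by 1.79 and 2.22 on the log2 scale in unstimulated and reactivated cells (differences -1.79 and -2.22), and Tnfsf8 differed by -2.21 and -1.33. Tnf differed by -0.46 and 0.2, and Lta by 0.07 (1.84 against 1.78) and -1.01 (2.85 against 3.86). Tnfsf10 differed by -1.04 and -0.96, Tnfsf11 by -1.16 and -0.53 and Tnfsf14 by -1.03 and 0.36. In reactivated cells Tnfsf4 differed by -1.63 and Cd40lg by -1.04, while in unstimulated cells Tnfsf4 was at least 1.9-fold lower in Cy3 and Cd40lg was at background on both arrays. Ltb differed by -1.43 in unstimulated but by 0.9 in reactivated cells, the opposite sign from 6 hr. These pairs have no replicate check.

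The JQ1 effect depended on the state of the cells for 5 of 10 ligands, where 4.52% of genes were called higher and 6.02% lower in the test of that difference (limma). Fasl (difference between states -1.73 ± 0.39, adjusted p = 0.0203), Lta (-0.95 ± 0.16, adjusted p = 0.00691) and Tnf (-0.86 ± 0.17, adjusted p = 0.0112) lay lower, relative to DMSO, in reactivated than in unstimulated cells. Spike-in centring moved the split over all genes from 42.9% to 0.126% of calls higher and the median of all genes to -1 in this test. By state, 8 ligands were lower with JQ1 in unstimulated cells, where 24.2% of genes were lower and 15% higher, and 8 in reactivated cells, where 29.2% were lower and 16.7% higher. Spike-in centring left 37.7% of calls higher in unstimulated cells, against 38.3%, but 0.531% in reactivated cells, against 36.4%. In reactivated cells alone, Tnf changed by -0.55 ± 0.12 (adjusted p = 0.00297), and by -1 ± 0.13 in Cy3 alone (adjusted p = 0.000332), where the Cy5 signal was 10.14 and 9.72 with DMSO and 9.61 and 9.36 with JQ1, and in unstimulated cells its difference was 0.31 ± 0.12 (adjusted p = 0.0598). Tnfsf8 went the other way, with -2.73 ± 0.14 in unstimulated and -0.87 ± 0.14 in reactivated cells (difference 1.87 ± 0.2, adjusted p = 0.00083). For Ltb the changes were -2.93 and -1.8 (difference 1.13 ± 0.26, adjusted p = 0.0228), a difference that was -0.08 with spike-in centring and -0.04 with a spike-in shift. The differences for Cd40lg (-0.44), Tnfsf4 (1.06, and -0.14 with spike-in centring), Tnfsf10 (-0.04), Tnfsf11 (-0.4) and Tnfsf14 (0.64) were not called. Without the unstimulated Th2 DMSO array, 2 of the 5 calls were made, and without either the unstimulated Th1 or the reactivated Th2 DMSO array 3 were made.

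**Figure D3:**
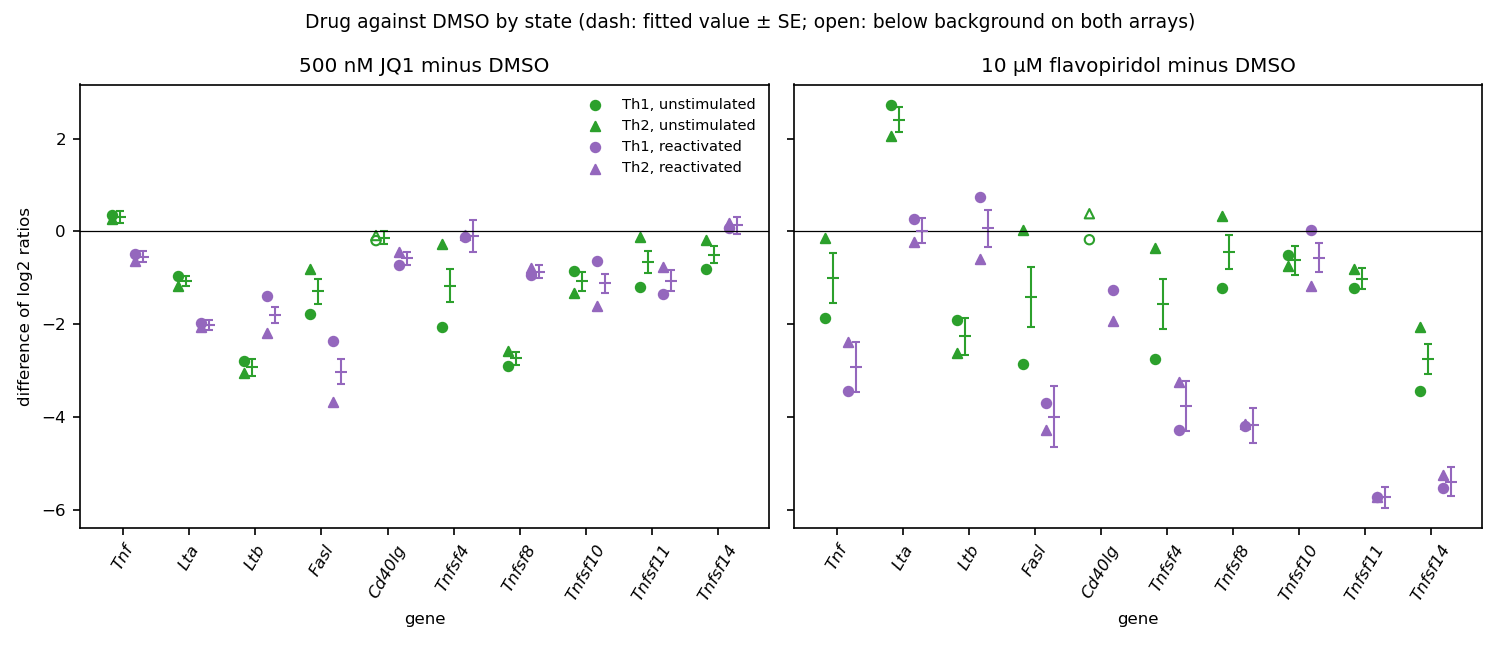
Difference from DMSO in log2 ratio for 500 nM JQ1 and for 10 µM flavopiridol, in unstimulated and reactivated cells, for each ligand (x axis). Circles are Th1 and triangles Th2 cells at 1 array each, and dashes with bars are the fitted effect ± SE. With JQ1 Tnfsf8 falls more in unstimulated cells and Fasl more in reactivated cells, and with flavopiridol Lta lies above 0 in unstimulated cells.

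Within the JQ1 arrays, reactivation still raised 8 ligands and lowered Tnfsf10, where 24.3% of genes rose and 34.1% fell over 5 pairs (41.6% of calls higher, and 18% with a spike-in shift). Tnfsf8 rose by 5.04 ± 0.29, Tnfsf11 by 4.68 ± 0.21, Tnf by 3.65 ± 0.23 and Tnfsf14 by 3.35 ± 0.2 (adjusted p = 8.51e-06, 6.71e-06, 1.11e-05 and 8.71e-06), the last with 2.24 from the scanner log ratio and 6.02 from the authors' table. Lta rose by 1.84 ± 0.2 and Fasl by 1.76 ± 0.43 (adjusted p = 9.65e-05 and 0.00713), and Tnfsf4 by 2.5 and Cd40lg by 1.73 (adjusted p = 0.000184 and 4.84e-05). Tnfsf10 changed by -0.59 ± 0.2 (adjusted p = 0.0303). The unstimulated signal of Cd40lg was at background throughout, so its value is not a measured size. That of Tnfsf4 was well above background on only 2 of the 5 unstimulated arrays, so its value is not fully measured either. Ltb had a difference of -0.96 ± 0.42 and was not called (adjusted p = 0.0798). These JQ1 pairs include both doses and the 24 hr cells. In reactivated cells the summed CD8 T and NK cell list was higher in 5 of 5 pairs, by 0.91 to 1.76 (log2 Cy3). T cell markers were lower in 5 of 5, with differences of -0.92 to -0.51, and naive T cell markers in 4 of 5. Their part was not tested.

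JQ1 also lowered other genes around the ligands, where 30.1% of all genes were lower and 17.8% higher. Of 9 tested receptors, 5 fell, among them Fas, the receptor of Fasl (-1.08, adjusted p = 6.5e-05) and Tnfrsf10b, the TRAIL receptor (-0.64, adjusted p = 0.00183). Of 5 further ligands, 4 fell, led by Cd70 at -1.37 (adjusted p = 9.77e-05). Of 30 signalling genes, 13 fell and 5 rose, the latter a share near that of all genes. Cflar was at -1.67 and Traf1 at -1.27 (adjusted p = 0.000782 and 0.00137), and the 5 that rose were called higher under no spike-in or median centring. Median centring, spike-in centring and a spike-in shift called 19, 17 and 10 of the 30 lower, where 5864, 4938 and 3624 of 12906 genes were lower. Zfp36 (0.52), Adam10 (0.42) and Rc3h1 (0.37) rose in the message-control list (adjusted p = 0.00404, 0.00425 and 0.0019), but none of the 3 was called with either spike-in setting, where Zfp36 was at 0.09 and Adam10 and Rc3h1 turned to -0.14 and -0.19 with spike-in centring. Summed markers of 5 cell type lists were lower too in each of the 4 contexts with 500 nM JQ1 (log2 Cy3). The Th1 list differed by -1.7 to -0.69 and the Th2 list by -1.34 to -0.36. For B cell markers the differences were -0.96 to -0.63, with 4 to 6 of 6 detected with DMSO and 4 to 5 with JQ1. For T cell markers they were -0.92 to -0.68, with all 6 detected, and for the CD8 T and NK cell list -0.6 to -0.24, with 2 to 4 and 1 to 3 of 6 detected. Their part in the JQ1 results was not tested.

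With 10 µM flavopiridol, 4 ligands were at background on every array, while Lta of unstimulated cells was above its DMSO level. Over the same 4 contexts 7 of 9 tested ligands were lower and none higher, where 33.8% of 12425 genes were called lower and 15.6% higher (limma). The median log2 change was -2.31 over the ligands and -0.22 over all genes. Spike-in centring moved the split from 31.6% to 0.167% of calls higher and the median of all genes to -1.68, so directions relative to total RNA and to added spike RNA differ for many genes. With it, 8 of 9 ligands were lower and none higher, where 11368 of 12425 genes were lower, a share near that of the ligands. No flavopiridol array shared a slide with its DMSO control, so drug and slide cannot be told apart, and with the slide as a random block 3 ligands were called.

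Tnfsf14 was 5.33 and 5.2 in reactivated Th1 and Th2 cells with DMSO and -0.19 and -0.05 with 10 µM flavopiridol. It was well above background on none of the 4 arrays, and its Cy3 signal was at least 39.7-fold lower over the 4 contexts and at least 253-fold lower in reactivated cells. The fit of the ratios gave smaller falls, 16.8-fold over the contexts and 41.8-fold in reactivated cells (limma adjusted p = 0.000243 and 4.6e-05). Tnfsf11 was 5.48 and 5.22 with DMSO and -0.24 and -0.51 with the drug, at least 59.9-fold lower in Cy3 in reactivated cells and 11.4-fold over the contexts. Its fall in the ratio fit was 10.4-fold over the contexts (adjusted p = 0.0143). Tnfsf4 was at least 9.02-fold lower in Cy3 in reactivated cells and 4.7-fold over the contexts, with 6.31-fold over the contexts in the ratio fit (adjusted p = 0.00355). Cd40lg passed the detection filter on too few arrays to be tested, and was at least 2.72-fold lower in reactivated cells. These 4 ligands had no signal well above background on any 10 µM array.

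Fasl was -1.49 and -1.59 in reactivated cells with 10 µM flavopiridol, against 2.21 and 2.69, with a change over the contexts of -2.7 ± 0.65 (adjusted p = 0.00818). Neither Th2 array of 10 µM was well above background for Fasl, so the size of that change is not fully measured, and in reactivated Th2 cells its Cy3 signal was at least 20.9-fold lower. Tnfsf8 was -0.03 and 0.33 against 4.17 and 4.48 in reactivated cells, and -0.02 and 0.5 against 1.21 and 0.16 in unstimulated ones. Its change was -2.31 ± 0.77 (adjusted p = 0.034), with -4.18 ± 0.37 in reactivated cells (adjusted p = 0.000151). In unstimulated cells it was not called at -0.45 ± 0.37 (adjusted p = 0.359), where the single pairs were -1.23 in Th1 and 0.34 in Th2 cells and spike-in centring gave -2.33 (adjusted p = 0.00101). The test of that difference gave -3.73 ± 0.53 (adjusted p = 0.00606). Tnfsf10 changed by -0.6 ± 0.21 (adjusted p = 0.0399), a call lost under 14 of 26 alternatives with a value of -2.45 under spike-in centring, and Tnf by -1.96 ± 0.56 (adjusted p = 0.0173). Ltb was not called over the contexts (-1.1 ± 0.51, adjusted p = 0.105).

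At 1 µM, 7 ligands were lower, where 35.7% of genes were lower and 16.3% higher. Tnfsf11 and Tnfsf4 were well above background on none of the 4 arrays, and were at least 10.3-fold and 4.79-fold lower in Cy3. Their changes in the ratio fit were -3.29 and -2.56 (limma adjusted p = 0.015 and 0.00387). Tnfsf14 and Fasl, each detected on 2 of the 4 arrays, changed by -3.73 and -2.86 (adjusted p = 0.000292 and 0.0056). Tnfsf8 changed by -2.07 and Tnfsf10 by -0.62 (adjusted p = 0.0495 and 0.0327), and Lta was not called with 0.7 (adjusted p = 0.246). Cd40lg could not be tested and was at least 2.87-fold lower in Cy3 in reactivated cells. Ltb was called at this dose with -1.39 (adjusted p = 0.0472) and Tnf was not, with -0.68 ± 0.56 (adjusted p = 0.331).

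Tnf had the largest difference between reactivated and unstimulated cells among the ligands with flavopiridol present. In unstimulated Th1 and Th2 cells its log2 ratio was -1.31 and -1.19 with 1 µM and -1.21 and -1.4 with 10 µM. After reactivation it was 2.79 and 3.99 with 1 µM, next to 4.11 and 3.5 with DMSO, and 0.66 and 1.11 with 10 µM. All 4 pairs were higher, by 4.1, 5.17, 1.87 and 2.51, and the fitted change was 3.41 ± 0.51 (SE, 4 pairs), at rank 10 of 10918 genes. Unstimulated Th2 cells with 10 µM had Tnf below background, where the Cy3 difference was at least 5.78-fold. It was not called (limma adjusted p = 0.0662, unadjusted p = 0.000328), where 0.11% of genes were called higher and 0.0275% lower (80% of calls higher, and 98.6% with spike-in centring). With median centring it was 3.27 (adjusted p = 0.0127), and with either spike-in setting it was called as well. Lta changed by 0.34 ± 0.08 (adjusted p = 0.119) and the other 4 tested ligands by -0.2 to 0.13, so no ligand was called, and 3 of 6 had an unadjusted p below 0.05 (limma). Cd40lg, Tnfsf4, Tnfsf11 and Tnfsf14 passed the detection filter on too few of these arrays to be tested. Against DMSO, Tnf in reactivated cells with 10 µM was lower by 2.92 ± 0.54 or 7.57-fold (change -2.92, adjusted p = 0.00315). In Cy3 alone the change was -3.73 ± 0.63 (adjusted p = 0.00239), with a Cy5 signal of 10.14 and 9.72 with DMSO and of 9.16 and 9.08 with the drug.

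Lta moved in the other direction. In unstimulated cells it was 0.46 (Th1) and -0.83 (Th2) with DMSO, 2.65 and 0.59 with 1 µM flavopiridol and 3.2 and 1.23 with 10 µM. In reactivated cells it was 3.15 and 1.76, 3.17 and 0.93, and 3.42 and 1.52 in the same order. Unstimulated Th1 cells with 10 µM thus had Lta near the level of the reactivated control, whereas unstimulated Th2 cells stayed below theirs at both doses. The change in unstimulated cells at 10 µM was 2.4 ± 0.27 or 5.26-fold (adjusted p = 0.000738) and in reactivated cells 0.01 ± 0.27 (adjusted p = 0.973). The difference between states was called (-2.38 ± 0.38, adjusted p = 0.00851). With spike-in centring the change in unstimulated cells was 0.7 (adjusted p = 0.323) and that in reactivated cells -1.83 (adjusted p = 0.0283), and over the 4 contexts it was -0.56 in place of 1.2 ± 0.48 (adjusted p = 0.0645).

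Ltb with 10 µM flavopiridol was -1.96 and -2.97 in unstimulated cells, against -0.06 and -0.35, and -1.61 and -2.91 in reactivated cells, against -2.34 and -2.31. It was lower in unstimulated cells by 2.26 ± 0.4 on the log2 scale (change -2.26, adjusted p = 0.00344) and gave 0.07 ± 0.4 in reactivated cells (adjusted p = 0.901, and -0.93 with spike-in centring), with a difference between states of 2.33 ± 0.56 (adjusted p = 0.0308). The difference between states was also called for Tnfsf11 (-4.71 ± 0.31, adjusted p = 0.00105) and Tnfsf14 (-2.63 ± 0.46, adjusted p = 0.011), but both were at background with the drug in either state, so that these values mirror the rise in DMSO cells and cannot show an effect of state on the drug's action. It was not called for Tnf (-1.92), Fasl (-2.58), Tnfsf4 (-2.2) and Tnfsf10 (0.05). With these, 5 of 9 ligands were called, where 9% of genes were called higher and 7.06% lower. Spike-in centring moved that split from 56% to 30.1% of calls higher. By state, 5 ligands were called in unstimulated cells, where 12.4% of genes were higher and 31.5% lower, and 6 in reactivated cells, where 19.3% were higher and 32.1% lower. In these tests spike-in centring left 0.154% and 0.247% of calls higher, against 28.3% and 37.6%. Without 1 array, the number of calls ran from 2 (without either Th2 array of 10 µM flavopiridol) to 8 (without the unstimulated Th1 DMSO array).

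**Figure D4:**
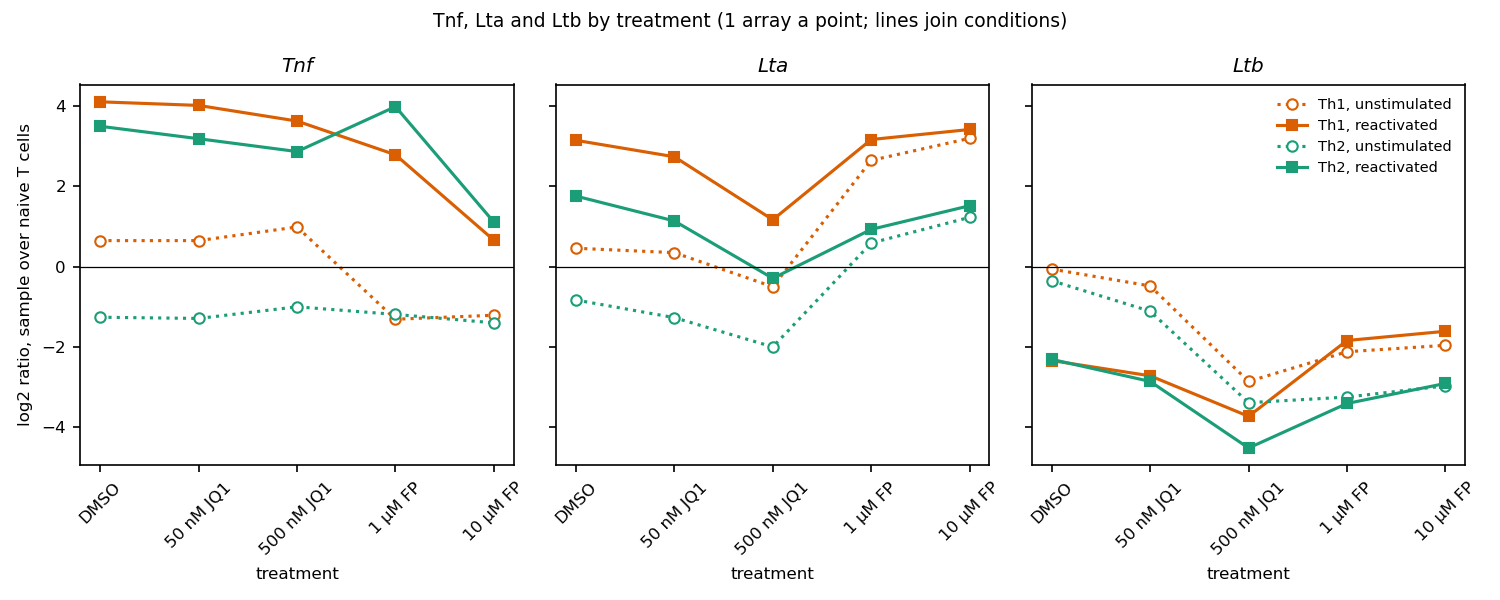
Log2 ratio to naive cells of Tnf, Lta and Ltb (panels) by treatment (x axis), in unstimulated and reactivated Th1 and Th2 cells, 1 array per point. In reactivated cells Tnf is at 2.79 and 3.99 with 1 µM flavopiridol, Lta of unstimulated cells lies higher with flavopiridol than with DMSO, and Ltb of unstimulated cells lies lower with 500 nM JQ1 and with flavopiridol.

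Around the ligands, flavopiridol lowered 24 of 30 signalling genes and raised 2, where 33.8% of all genes were lower and 15.6% higher. The largest changes were in the NF-κB inhibitor gene Nfkbia (-4.84, adjusted p = 0.000449), the feedback deubiquitinase gene Tnfaip3 (-3.7, adjusted p = 0.00176) and the subunit genes Rela (-2.93, adjusted p = 0.000181) and Relb (-2.73, adjusted p = 0.000102). Median and spike-in centring called 29 and 30 of the 30 signalling genes lower, where 8364 and 11368 of 12425 genes were lower. Of 9 receptors, 5 fell and 2 rose, with Tnfrsf4 at -4.34, Cd40 at -2.72 and Fas at -2.42 (adjusted p = 8.06e-05, 0.000769 and 0.00039). Median and spike-in centring called 7 and 9 of the 9 lower. Tnfsf9 fell by 3.89 and Cd70 by 2.72 on the log2 scale (changes -3.89 and -2.72, adjusted p = 0.000132 and 0.00158), and Tnfsf12 rose by 1.02 (adjusted p = 0.00032), but turned to -0.93 with spike-in centring. Of 10 message-control genes 6 fell, with the decay factors Zfp36l1 at -3.47 and Zfp36l2 at -3.09 (adjusted p = 7.15e-05 and 0.00259), and the same 2 settings called 9 and 10 of these 10 genes lower. The 2 receptors and the 2 signalling genes that rose were called higher under neither median nor spike-in centring. Summed dendritic cell markers were lower with flavopiridol too, going from 15.46 to 16.13 (log2 Cy3, 6 DMSO arrays) to 13.37 to 14.72 (8 flavopiridol arrays), with 2 to 5 of 6 detected and Xcr1 on no array. Macrophage and monocyte markers were at 13.52 to 14.24 on unstimulated DMSO and 12.2 to 12.95 on unstimulated flavopiridol arrays, and at 13.83 to 13.93 and 12.21 to 13.75 on reactivated ones. With flavopiridol 2 to 3 of these 6 were detected, and Lyz2 and Fcgr3 on no array. Naive T cell markers were at 15.69 to 16.39 on unstimulated DMSO and 13.72 to 14.04 on unstimulated flavopiridol arrays, with all 5 detected. B cell markers were lower in each of the 4 contexts, with differences of -1.56 to -1.03 at 10 µM and -1.84 to -0.5 at 1 µM, with 2 to 6 of 6 detected. The part of these 4 lists in the flavopiridol results was not tested.

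Set against each other over 16 arrays without the DMSO controls, the drugs differed for 7 of 10 ligands, where 22.6% of genes were higher and 33.9% lower with 10 µM flavopiridol than with 500 nM JQ1 (limma). The split of 40% of calls higher was 2.43% with spike-in centring, which put the median of all genes at -1.07. Lta was higher with flavopiridol by 2.75 ± 0.39 or 6.71-fold (adjusted p = 7.83e-05) and Ltb by 1.26 ± 0.43 (adjusted p = 0.0237). Tnfsf14, Tnfsf11 and Tnfsf4, at background on all 4 flavopiridol arrays, were at least 29.9-fold, 5.53-fold and 3.1-fold lower in Cy3, with Tnfsf4 detected on 3 of the 4 JQ1 arrays. In the fit of the ratios they were 14.8-fold, 5.71-fold and 4.06-fold lower (limma adjusted p = 0.000155, 0.0362 and 0.0226). Tnf was lower too (-1.83 ± 0.53, adjusted p = 0.0107). Tnfsf10 was 0.51 ± 0.2 higher (adjusted p = 0.0448), a sign that turned to -0.45 with median centring and -0.86 with spike-in centring. Fasl and Tnfsf8 differed by -0.55 (interval -1.82 to 0.72) and -0.51 (interval -2.89 to 1.86), and Cd40lg, at background with flavopiridol, was not called (adjusted p = 0.355). Without any 1 of the 4 reactivated arrays of the 2 drugs at these doses, 3 ligands were called. In no context did JQ1 and flavopiridol arrays share a slide, so drug and slide cannot be told apart within a context. Summed dendritic cell markers were at 15.65 to 15.92 (log2 Cy3) with 500 nM JQ1 and 13.37 to 14.55 with 10 µM flavopiridol. Macrophage and monocyte markers were at 13.41 to 14.02 and 12.21 to 13.09. T cell markers went the other way, at 15.31 to 16.31 and 16.58 to 16.78. Their part was not tested.

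Th1 cells held more of 5 ligands than Th2 cells, and none was lower, over 6 matched pairs with DMSO or JQ1, where 14.8% of 12906 genes were higher and 14.4% lower (limma; 50.6% of calls higher, and 31.6% with median centring). Lta was the most even of them. Its Th1 minus Th2 difference was 1.29 to 1.62 over the 6 pairs, and 1.48 ± 0.07 or 2.79-fold in the fit (adjusted p = 3.86e-06). With flavopiridol the 4 pairs gave 1.9 to 2.24. Tnf differed by 0.61 to 1.99 (fit 1.34 ± 0.21, adjusted p = 0.00233), more in each unstimulated pair than in any reactivated pair, and by -1.19 to 0.19 with flavopiridol. Th1 and Th2 arrays shared a slide in the DMSO pairs but in none of the JQ1 or flavopiridol pairs. In those pairs lineage and slide cannot be told apart.

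Tnfsf4 differed by 0.5 to 2.42 (fit 1.38 ± 0.25, adjusted p = 0.00408), with Th2 signal below background in unstimulated JQ1 cells. Fasl differed by -0.48 to 3.03 (1.45 ± 0.45, adjusted p = 0.0377) and Ltb by -0.03 to 0.78 (0.39 ± 0.13, adjusted p = 0.0457). Each of these 2 had 1 pair of 6 against the sign, and without 1 array the number of calls ran from 3 to 5, the lowest for 8 of the 12 arrays. Tnfsf8, Tnfsf10, Tnfsf11, Tnfsf14 and Cd40lg were not called, with fitted differences of -0.06 to 0.37. B cell markers moved with the lineage. Their summed Cy3 signal was 9.84 to 10.76 (log2) on the 6 Th1 arrays, with 4 to 5 of 6 markers detected, and 11.29 to 12.32 on the 6 Th2 arrays, with 5 to 6 detected. The CD8 T and NK cell list was higher in Th1 cells in 6 of 6 pairs, by 0.3 to 0.9, with 1 to 4 of 6 detected on Th1 and 1 to 2 on Th2 arrays. Naive T cell markers, all 5 detected, were higher in Th1 cells in 6 of 6 pairs, by 0.57 to 1.38. The part of these 3 lists was not tested.

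**Figure D5:**
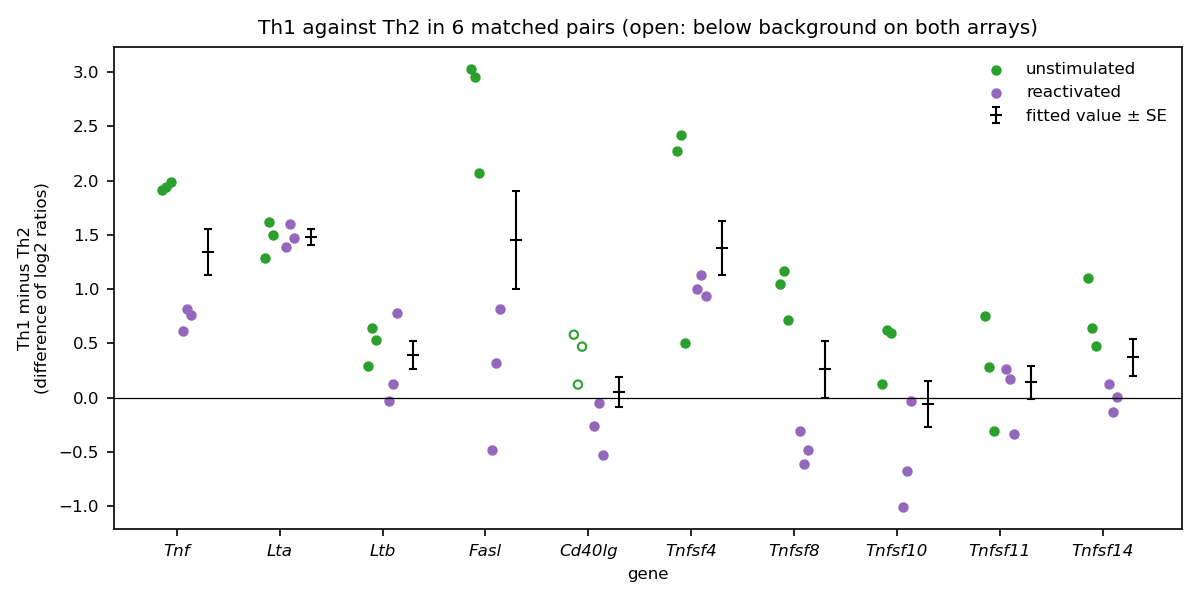
Th1 minus Th2 difference in log2 ratio of each ligand (x axis) in 6 matched pairs of arrays with DMSO or JQ1, coloured by state. The dash with bars is the fitted value ± SE, and open circles are pairs below background on both arrays. Lta lies between 1.29 and 1.62 in both states, and Tnf and Fasl lie higher in unstimulated than in reactivated pairs.

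Receptors followed the same direction, with 5 of 9 higher in Th1 cells and none lower, where 14.8% of genes were higher and 14.4% lower. Among them were Fas at 1.03 and Tnfrsf4 at 1.02 (adjusted p = 0.0201 and 0.0229). Of 30 signalling genes, 10 were higher and 1 lower. Traf1 differed by 2.36, Tnfaip3 by 1.86, Relb by 1.28 and Nfkb2 by 1.24 (adjusted p = 2.84e-05, 0.000398, 0.0255 and 0.00172).

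The test of whether JQ1 acted differently in Th1 and Th2 cells called 0 of 10 ligands and 0 of 12906 genes, with 869 genes and 2 ligands at an unadjusted p below 0.05 (limma). For flavopiridol it called 0 of 9 ligands and 2 genes, 0% of genes higher and 0.0161% lower (0% of calls higher, and 99.4% with spike-in centring), with 1594 genes and no ligand at an unadjusted p below 0.05. The intervals were wide. For Tnf the difference in JQ1 effect was 0.12 (95% interval -0.7 to 0.93) and that in flavopiridol effect -1.39 (interval -3.96 to 1.17). Over the ligands tested, the differences ran from -0.91 for Tnfsf4 to 0.73 for Tnfsf10 with JQ1, and from -1.71 for Tnfsf4 to 1.03 for Ltb with flavopiridol.

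In Th1 cells, 24 hr arrays were set against 6 hr arrays over 4 pairs with DMSO or JQ1, where 3.02% of genes were higher and 3.44% lower (limma; 46.7% of calls higher, and 65.8% with median centring). Lta was higher by 1.51 ± 0.22 (adjusted p = 0.0104), Ltb by 1.62 ± 0.4 (adjusted p = 0.0436) and Tnfsf10 by 0.49 ± 0.11 (adjusted p = 0.037), each in 4 of 4 pairs. Tnfsf4 was lower in 4 of 4 pairs (-1.44 ± 0.28, adjusted p = 0.022), in reactivated cells at 3.07 against 4.22 with DMSO and at 1.45 against 4.08 with JQ1. In unstimulated cells its 24 hr JQ1 signal was not well above background. Tnf (0.43), Fasl (0.57), Cd40lg (0.47), Tnfsf8 (0.36), Tnfsf11 (0.09) and Tnfsf14 (-0.29) were not called. The single pairs of Ltb ran from 0.14 to 3.57, the highest in reactivated cells with JQ1 (-0.17 against -3.73). The 6 hr arrays lay on 1 slide and the 24 hr arrays on another, so time and slide cannot be told apart. Summed T cell markers were higher at 24 hr in 4 of 4 pairs, by 0.16 to 0.67, as were Th2 markers, by 0.33 to 1.02 with 2 to 6 of 6 detected. Naive T cell markers were lower in 4 of 4, with differences of -0.99 to -0.04. The part of these 3 lists was not tested. Leaving out any 1 array left 0 to 2 ligands called, with 0 without either unstimulated DMSO array.

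Across all 24 arrays the ligands with a Cy3 signal on at least 12 of them were set against 11813 genes by Pearson's r of the log2 ratio. The arrays share the naive reference and include unstimulated and reactivated pairs, so r is a description only. Tnf ran closest to Hbegf (0.946), the chemokine gene Ccl4 (0.945) and Nfkbid (0.934), and Tnfsf14 to Rgs16 (0.981), Irf4 (0.981) and Creb3l2 (0.979). Tnfsf11 had the highest values, with Map2k3os (0.99), Fam83g (0.986) and Rrs1 (0.984), and Tnfsf8 followed with Rbm19 (0.964), Phxr4 (0.963) and Ubash3b (0.958). Tnfsf4 was nearest to Arl14ep (0.961), Bcl2a1d (0.932) and Dusp16 (0.929), and Fasl to Il18 (0.925), Adora2a (0.919) and Cd200 (0.916). Lta was nearest to Timm13 (0.919), Jaml (0.901) and Dhps (0.895), Ltb to Lck (0.889), Fbxo4 (0.868) and Pigp (0.836), and Tnfsf10 to Slfn8 (0.83), Calhm6 (0.818) and Ifi214 (0.81). Between the ligands, Tnfsf11 reached 0.93 with Tnfsf8 and with Tnfsf14, whereas Tnf reached 0.44 with its neighbour Lta and -0.12 with Ltb.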

How the data were processed

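The authors deposited the scanner output of 24 dual-colour Agilent arrays, from which spot and background median intensity values were taken in Cy3 and Cy5. The deposited log10 ratio of the scanner software (Feature Extraction 10.7.1.1, an mm9 grid) and the authors' normalized log2 table of 34710 probes served as alternatives, and each array correlated at 0.981 to 0.996 with that table. The study's methods name a rank-sum test and, for the mouse gene sets, fold thresholds, so the limma tests used here are another choice.

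Background was corrected by normexp (offset 50) and ratios by loess within arrays, expressed as Cy3 over Cy5. Of several probes for a gene, the brightest was kept. Genes well above background in Cy3 on at least 3 arrays of a fit were tested in R 4.3.3 with limma 3.58.1 (lmFit, eBayes with trend, context as block), adjusted by Benjamini-Hochberg over all genes and called below 0.05. Cy3 levels followed loess and Aquantile scaling. Bounds set the brighter group against, on each dim array, the higher of the lowest signal well above background and the probe's own signal. Scripts were tested on simulated data. Figures were drawn with matplotlib 3.10.9 in python 3.11.15.

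The ligands and gene lists were chosen with earlier results of these data known. The rule was to name all 10 ligands in every comparison, those without a call being given in part as ranges, and from other lists the called genes of largest change, at most 4 per list. Groups came from the sample labels. The effects within 1 state, and of reactivation within 1 drug, were added after seeing the data. Dyes were not swapped, so a constant dye effect of a probe stays in its level and cancels between arrays, whereas a Cy5 signal that moves with the sample, as for Tnf and Tnfsf14, does not cancel. The number of arrays limits the precision, and the median SD of the naive signal between arrays was 0.18 (log2, 276 pairs of arrays). Alternatives changed the scaling, background, filter, block, slide and single arrays.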

Additional observations from a re-analysis of the deposited data

Results flagged for a closer look

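The effect of a drug on 5 ligands differed between reactivated and unstimulated cells by the limma test of that difference. For 500 nM JQ1 the difference, reactivated minus unstimulated on the log2 scale, was -0.86 for Tnf, -0.95 for Lta, 1.13 for Ltb, -1.73 for Fasl and 1.87 for Tnfsf8. For 10 µM flavopiridol it was -2.38 for Lta, 2.33 for Ltb and -3.73 for Tnfsf8. The same test also called Tnfsf11 (-4.71) and Tnfsf14 (-2.63) with flavopiridol, but their signal with the drug was not well above background in either state. These values mirror the rise of 4.76 and 2.57 in DMSO cells and cannot show an effect of state on the drug's action.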

How the results depend on the processing

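Over the ligands, 3185 of the recomputed values kept direction and call, 317 lost the call, 86 gained it and 7 that were called in a setting turned sign. A further 119 turned sign without being called in either setting, among them Lta with flavopiridol over the contexts (-0.56) and Tnfsf4 in the JQ1 difference between states (-0.14), both with spike-in centring. The 7 were Ltb in the JQ1 difference between states (-0.08 with spike-in centring, -0.04 with a spike-in shift), Tnfsf10 between the drugs (-0.45 with median centring, -0.86 with spike-in centring), Tnfsf14 with JQ1 in reactivated cells (-0.95 with spike-in centring, -0.89 with a spike-in shift) and Lta with flavopiridol in reactivated cells (-1.83 with spike-in centring). The cause was not tested. Calls lost under most alternatives were those of Tnfsf10 between the drugs (20 of 29), at 24 against 6 hr (13 of 20) and with flavopiridol (14 of 26), of Ltb at 24 against 6 hr (15 of 20), of Ltb and Fasl between Th1 and Th2 cells (17 and 15 of 28), of Tnfsf14 with JQ1 in unstimulated cells (14 of 26) and of Tnfsf4 with flavopiridol there (14 of 23). The call of Ltb in the JQ1 difference between states held under 12 of 26.

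Numbers of ligands called moved by over 1.5 times as follows. Without the context block, the number was 0 for JQ1, for the JQ1 difference between states, for Th1 against Th2 and for 24 against 6 hr, 2 for JQ1 in either state and between the drugs, and 3 for the flavopiridol difference between states and for flavopiridol in unstimulated cells. At the lower JQ1 dose it was 0. With genes detected on all arrays, which left 3 ligands tested, it was 1 for flavopiridol overall and in reactivated cells, 2 in unstimulated cells and between the drugs, and 3 for the flavopiridol difference between states. With slide as a random block it was 3 for flavopiridol overall and in unstimulated cells and 8 for its difference between states. The scanner log ratio gave 1 for the JQ1 difference between states, 3 for that of flavopiridol, 3 for Th1 against Th2 and 0 for 24 against 6 hr. An offset of 0, or leaving out both Th2 DMSO arrays (added after seeing the data), gave 1 for the JQ1 difference between states. Median, spike-in centring and spike-in shift gave 3, 3 and 2 for the flavopiridol difference between states, 2, 2 and 1 for 24 against 6 hr, and 1 each for reactivation with flavopiridol. Spike-in centring gave 8 for flavopiridol in unstimulated cells, where it called 9697 of 12425 genes lower. Th1 against Th2 gave 3 with the authors' table, with no detection filter and with the flavopiridol arrays added.

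Leaving out 1 array at a time gave 8 to 10 for reactivation with DMSO, 6 to 7 for JQ1, 3 to 7 for flavopiridol, 2 to 5 and 2 to 8 for the JQ1 and flavopiridol differences between states, 3 to 5 for Th1 against Th2, 0 to 2 for 24 against 6 hr and 3 to 7 between the drugs. It gave 8 to 9 for reactivation with JQ1, 0 to 1 with flavopiridol, 4 to 9 and 6 to 8 for JQ1 in unstimulated and reactivated cells, and 3 to 8 and 6 to 7 for flavopiridol there. For flavopiridol the number was 3 without the reactivated Th2 and 4 without the reactivated Th1 array of 10 µM. For JQ1 in unstimulated cells it was 4 without the Th1 DMSO or Th1 500 nM JQ1 array, and for flavopiridol there it was 8 without the Th2 DMSO array.

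Slide could not be fitted as a random block for reactivation, for the differences in drug effect between Th1 and Th2 cells or for 24 against 6 hr, and those differences in drug effect were not run without the Th2 DMSO arrays. The tests were paired by matched condition through the context block, and the labels give no replicate numbers to pair by. With 1 array per condition, no value has a replicate check.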
